A study of Lithobates pipiens with 72 samples.

Results

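Immediate-early genes are switched on within minutes of a growth signal, a wound or another stimulus, without new protein synthesis, and their transcripts are short-lived. Many encode transcription factors, and others encode secreted matrix-associated proteins or proteins that shorten the response by destroying mRNA or by blocking a cytokine receptor. In vertebrates such genes are also raised by neuronal activity and tissue damage. The set described here is 9 transcripts of this kind, 9 of the 19128 transcript rows measured in whole tadpoles of the leopard frog Rana pipiens. They were picked by transcript identifier for their protein names, with earlier results of these data known, and which of the study's comparisons guided the choice is not recorded. The comparisons in which the members differed most, those of the MeNQ exposure, are therefore given as a description, with values and intervals and no p-value, and where calls are counted in them nothing is read from the counts. The NQ, TNT and IMX-101 comparisons may also have been known at the choice. The p-values given for the members in them do not allow for that.

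The members were named in the files by their closest protein. Those with a transcription factor name were v-fos (Rana_pipiens_Transcript_298273), a kruppel-like factor with no family number (Rana_pipiens_Transcript_257511), nuclear receptor subfamily 4 group A member 2 (Rana_pipiens_Transcript_278500), egr2 (Rana_pipiens_Transcript_444638) and ATF-3-like (Rana_pipiens_Transcript_355764). The secreted growth-associated proteins were CYR61-like (Rana_pipiens_Transcript_229775) and connective tissue growth factor, CTGF (Rana_pipiens_Transcript_340093). The 2 attenuators were zfp36 (Rana_pipiens_Transcript_239532), which in mammals binds AU-rich mRNA and hastens its decay, and suppressor of cytokine signaling 3, SOCS3 (Rana_pipiens_Transcript_251600), which blocks JAK-STAT signalling. All 9 closest proteins were from Xenopus. The rows are assembled transcripts with no genome position in the files.

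Tadpoles aged 7 to 10 d were kept for 96 h in water with no added compound (control) or with an energetic compound used in munitions, and RNA of 5 tadpoles from 1 beaker made a library. The 4 exposures were NQ (nitroguanidine) at 30, 150, 750 and 3750 mg/L, TNT (trinitrotoluene) at 1.5 mg/L, 2.3 mg/L or 3.4 mg/L, MeNQ (methyl nitroguanidine, nitroguanidine with an added methyl group) at 34, 170, 851 and 4225 mg/L, and IMX-101, an explosive mixture, at 10, 20 and 40 mg/L. Each exposure had its own control, and each of the 18 groups had 4 libraries, labelled A to D, 72 in all. The tadpoles shared a hatching cohort, TNT was delivered from a coating left by evaporated acetone, and IMX-101 solutions were brought to a set pH. Library totals ran from 1.67 to 21.7 M estimated counts, with a median of 10.8 M. Levels are CPM, the counts of a transcript in each 1000000 counts of the scaled library total, and scaling was done within each exposure, so a level set beside that of another exposure rests on separate scalings. Because whole bodies were measured, fewer cells of a type and less RNA per cell cannot be told apart.

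The members stood highest in the MeNQ controls. All 9 had their highest control mean there, against 16.7% of the 11661 transcripts tested in all 4 exposures. For v-fos, egr2, nuclear receptor 4A2, ATF-3-like and the kruppel-like factor, all 4 MeNQ control libraries lay above all 12 control libraries of the other exposures, 5 of 9 members, against 0.437% of transcripts. With library totals alone in place of the scaling, the members apart were again those 5, against 0.532% of transcripts. These levels are the base of the MeNQ fold changes that may have guided the choice of the members, so nothing is read from these shares. The MeNQ controls shared no sequencing lane with the other controls, so exposure experiment and lane cannot be told apart for them, and no test was made between controls.

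v-fos, a partner in the AP-1 transcription factor, had the widest range among the members with counts in every control library. Its level in the NQ controls was 20.6, 19.0, 22.7 and 14.5 CPM, and in the TNT controls 31.3, 23.3, 25.1 and 25.5 CPM. In the IMX-101 controls it was 309.9, 81.2, 218.6 and 66.3 CPM, and in the MeNQ controls 1526, 787.1, 835.8 and 534.4 CPM. The NQ and TNT controls lay close together, the IMX-101 controls lay above them with a wide spread, and the MeNQ controls lay above all others, with a mean 48.0 times that of the NQ controls.

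**Figure D1:**
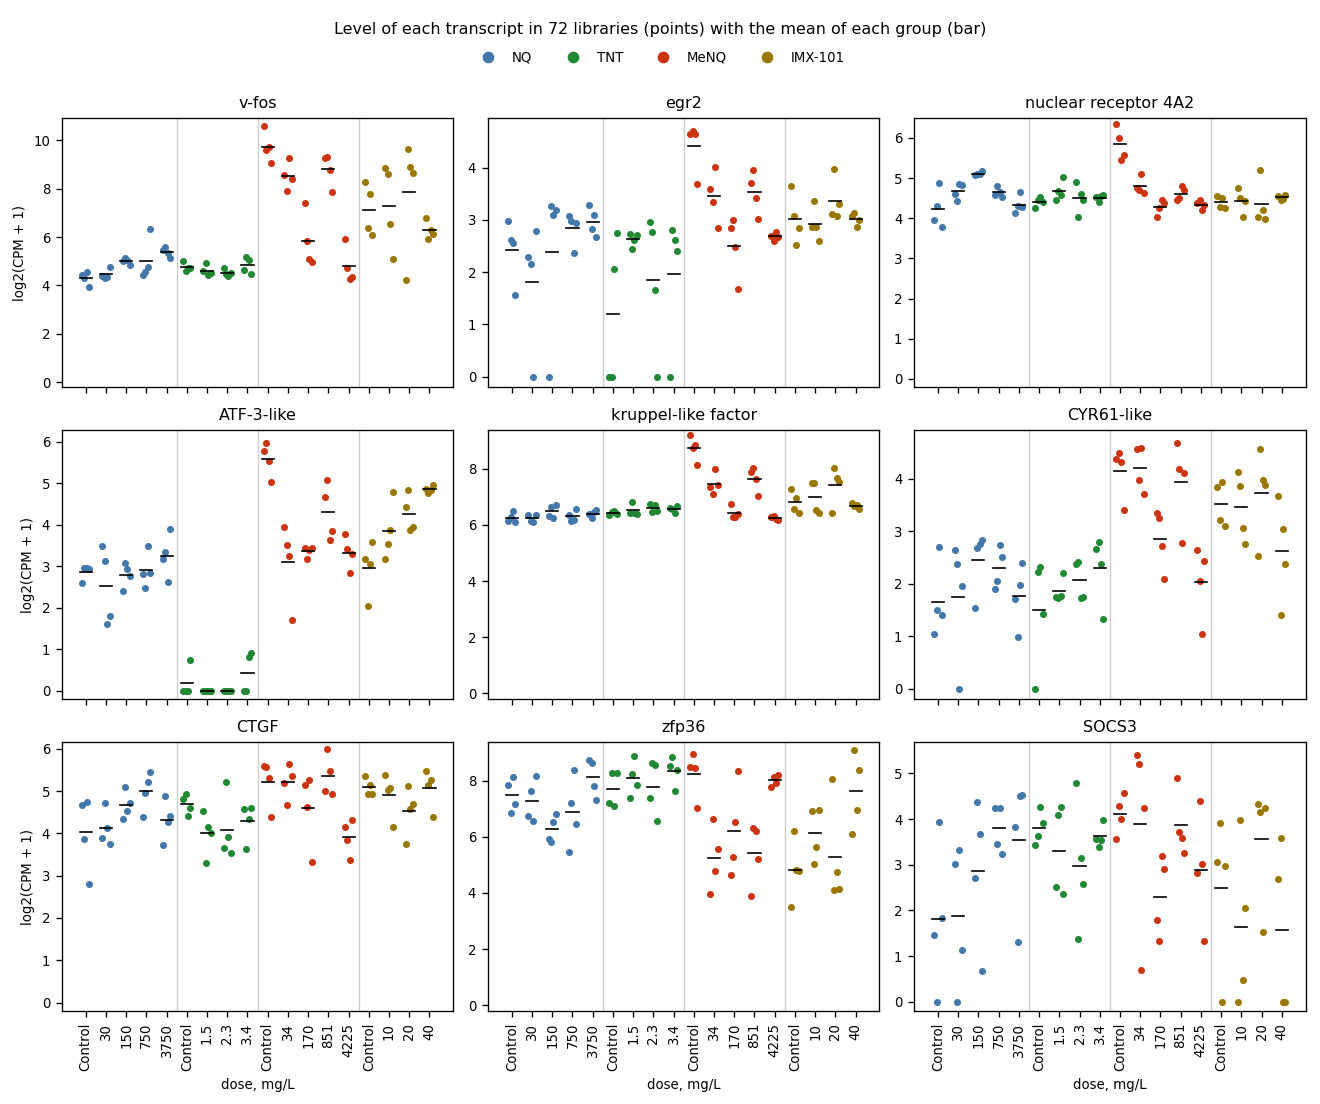
Level of each of the 9 members in every library, as log2(CPM + 1) on the vertical axis, by group on the horizontal axis; each point is 1 library and each bar is the mean of 4 libraries. The v-fos and kruppel-like factor panels show the MeNQ controls above the NQ and TNT groups, and the MeNQ 170 and 4225 mg/L groups near the level of the NQ and TNT groups.

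The other members kept the same top and differed in what stood at the bottom. The kruppel-like factor, of a family of zinc finger regulators, averaged 75.3 ± 9.67 CPM (SD, n = 4) in the NQ controls and 437.7 ± 128 CPM in the MeNQ controls. Nuclear receptor 4A2, an orphan nuclear receptor induced by neuronal activity in mammals, averaged 18.5 ± 6.95 CPM in the NQ controls and 58.3 ± 17.3 CPM in the MeNQ controls, a ratio of 3.15. For egr2, a zinc finger factor of hindbrain and Schwann cells in vertebrates, the ratio of the MeNQ to the TNT control mean was 9.60, and for CYR61-like it was 7.43. For CTGF the ratio of the MeNQ to the NQ control mean was 2.18. Its MeNQ control libraries, from 20.0 to 47.5 CPM, overlapped those of the NQ, TNT and IMX-101 controls, which reached 25.8, 29.8 and 40.2 CPM. SOCS3 ran from 10.9 to 22.8 CPM in the MeNQ controls and from 9.87 to 18.1 CPM in the TNT controls. zfp36 had its lowest control mean in the IMX-101 exposure, at 34.1 ± 26.7 CPM, and its highest in MeNQ, at 329.5 ± 148 CPM.

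In the MeNQ exposure the members differed in the doses at which they were low. v-fos, the kruppel-like factor and egr2 were lowest at 170 and 4225 mg/L. Nuclear receptor 4A2 lay below all controls at every dose. ATF-3-like did so at every dose but 851 mg/L, where its mean was lower by less and its libraries overlapped the controls. zfp36 lay below all controls at 34 and 851 mg/L, but its repeat runs disagreed and the order of its lower doses is not read. v-fos was 376.4, 236.7, 611.4 and 334.1 CPM at 34 mg/L and 169.9, 57.1, 33.5 and 30.6 CPM at 170 mg/L. It was 625.5, 630.5, 433.4 and 235.6 CPM at 851 mg/L and 59.9, 25.2, 18.3 and 19.2 CPM at 4225 mg/L. All libraries of 170 and 4225 mg/L lay below every control, while those of 34 and 851 mg/L overlapped the controls, so the levels did not follow the order of the doses. The log2 fold change was −1.24 ± 0.54 (SE) at 34 mg/L, −3.66 ± 0.59 at 170 mg/L, −0.94 ± 0.54 at 851 mg/L and −4.91 ± 0.63 at 4225 mg/L. Without library A, the highest at 170 mg/L, the value there was −4.51. The value at 4225 mg/L is a level 30.0-fold lower, with a 95% interval of −6.24 to −3.58 on the log2 scale. At that dose the libraries of 18.3 to 59.9 CPM reached the level of the NQ controls, 14.5 to 22.7 CPM, rather than one below it.

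The kruppel-like factor had the same shape with a tighter spread. Its MeNQ control libraries were at 590.5, 425.1, 455.4 and 279.6 CPM. They were followed by 162.2, 136.5, 254.0 and 172.0 CPM at 34 mg/L and by 106.1, 75.9, 77.7 and 83.7 CPM at 170 mg/L. At 851 mg/L the libraries were at 237.1, 260.7, 197.5 and 129.1 CPM, and at 4225 mg/L they were at 77.4, 78.6, 73.5 and 71.7 CPM. All 16 dosed libraries lay below all 4 controls. The log2 fold changes were −1.27 ± 0.23, −2.35 ± 0.24, −1.09 ± 0.23 and −2.54 ± 0.24 in order of dose. The 4 libraries at 4225 mg/L fell inside the range of the NQ controls, 67.3 to 88.5 CPM.

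Nuclear receptor 4A2 was lower at every MeNQ dose, by a similar amount. The controls were at 80.8, 62.8, 42.6 and 47.0 CPM, and the 16 dosed libraries lay between 15.2 and 33.2 CPM, all below the controls. Its log2 fold changes were −1.11 ± 0.18, −1.66 ± 0.18, −1.30 ± 0.18 and −1.59 ± 0.18 in order of dose.

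egr2 was at 24.1, 25.1, 24.0 and 12.0 CPM in the MeNQ controls, the last of them control D. At 170 mg/L it was at 6.23, 7.02, 4.57 and 2.19 CPM and at 4225 mg/L at 5.46, 5.08, 5.79 and 5.37 CPM, all below the controls, while the libraries of 34 and 851 mg/L overlapped control D. Its log2 fold change was −2.08 ± 0.35 at 170 mg/L and −1.97 ± 0.35 at 4225 mg/L, against −1.03 ± 0.34 and −0.97 ± 0.34 at 34 and 851 mg/L.

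ATF-3-like, named for a stress-induced factor of the ATF and CREB family, was at 53.6, 61.7, 45.6 and 31.5 CPM in the MeNQ controls. It was at 14.3, 10.4, 8.40 and 2.27 CPM at 34 mg/L, at 9.84, 8.02, 9.49 and 9.82 CPM at 170 mg/L and at 12.6, 9.70, 6.08 and 8.83 CPM at 4225 mg/L, in each case below all controls. At 851 mg/L it was at 24.3, 32.9, 11.5 and 13.3 CPM and overlapped the controls. The log2 fold changes were −2.44 ± 0.43, −2.37 ± 0.43, −1.23 ± 0.42 and −2.37 ± 0.43 in order of dose. The estimated counts of this row moved in steps: of the 105 sequencing runs above 0, 75 (71.4%) held a whole multiple of 8.43 counts within a tolerance of 0.05, and 29 of all 134 runs were at 0. The number of reads behind a value is therefore smaller than the estimated count, and a low value may stand for a few reads.

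Both secreted members were below all controls at the highest dose, and CYR61-like also at 170 mg/L. CYR61-like, a cysteine-rich protein that binds integrins, was at 19.9, 21.4, 18.9 and 9.55 CPM in the MeNQ controls and at 5.20, 3.12, 1.06 and 4.38 CPM at 4225 mg/L, with no overlap. At 170 mg/L it was at 9.23, 8.48, 5.55 and 3.24 CPM, just below the lowest control in the case of library A. Its log2 fold change was −2.34 ± 0.49 at 4225 mg/L, −1.39 ± 0.47 at 170 mg/L, 0.06 ± 0.46 at 34 mg/L and −0.12 ± 0.46 at 851 mg/L. CTGF, of the same protein family, was at 47.5, 46.6, 38.4 and 20.0 CPM in the controls and at 16.8, 13.3, 9.33 and 18.9 CPM at 4225 mg/L, a log2 fold change of −1.39 ± 0.39 without overlap. At the other doses the CTGF libraries overlapped the controls, with log2 fold changes between −0.54 ± 0.38 and 0.13 ± 0.38.

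At the highest dose neither attenuator lay below all controls. zfp36 was at 354.3, 488.3, 345.6 and 130.0 CPM in the MeNQ controls. It was at 14.7, 97.8, 26.7 and 46.5 CPM at 34 mg/L and at 13.9, 79.2, 73.0 and 35.6 CPM at 851 mg/L, all below the controls, with log2 fold changes of −2.83 ± 0.76 and −2.71 ± 0.76. At 170 mg/L it was at 24.1, 38.2, 91.3 and 325.6 CPM, with 1 library among the controls, and at 4225 mg/L it was at 218.8, 279.7, 241.2 and 291.7 CPM, within the range of the controls. The 2 runs of 851 mg/L A, C and D differed by 4.77, −5.48 and −5.34 on the log2 scale. Those of 34 mg/L A differed by −5.88 and those of 170 mg/L A by −4.73, so the order of the lower doses is not read. SOCS3 was below all controls at 170 mg/L, at 2.45, 1.52, 8.15 and 6.48 CPM against 10.9, 18.5, 15.1 and 22.8 CPM, a log2 fold change of −1.86 ± 0.87. Its 2 runs of 170 mg/L A to D differed by −6.44, 5.65, 7.56 and 6.04 on the log2 scale, so this gap is not read. Those of control C differed by 7.06. In the groups of the other doses SOCS3 overlapped the controls, and at 34 mg/L it ran from 0.611 to 41.5 CPM within the group.

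**Figure D2:**
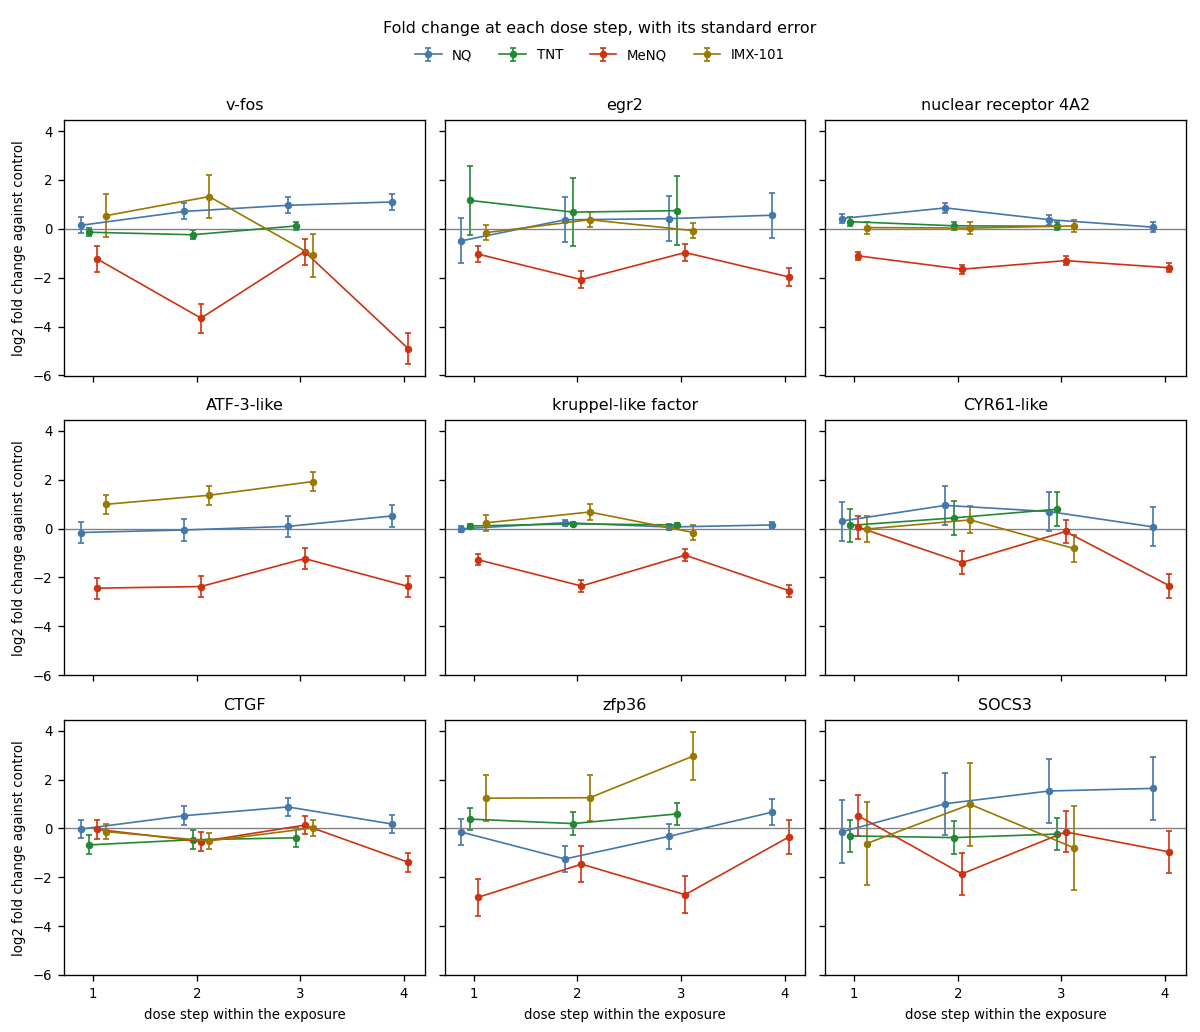
Log2 fold change from the exposure's own control on the vertical axis against dose step on the horizontal axis, with 1 panel a member and 1 line an exposure; points are fitted values and bars are ± SE, with 4 libraries a group. In the v-fos panel the MeNQ line reaches −4.91 at 4225 mg/L and −3.66 at 170 mg/L, while the TNT line ends at 0.12.

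Counted over the 9 members, the median log2 fold change was −1.11, −1.86, −0.97 and −1.97 at 34, 170, 851 and 4225 mg/L of MeNQ, beside 0.01, −0.02, −0.02 and −0.01 over the 13496 transcripts tested. The members with all 4 libraries below all 4 controls were 4, 7, 3 and 7, where 1.87%, 3.79%, 3.42% and 3.28% of all transcripts did so. An adjusted p under 0.05 was reached by 0, 5, 2 and 6 members, where 0%, 0.156%, 0.437% and 0.393% of transcripts reached it. Over the dose steps nuclear receptor 4A2 alone did so, where 0.0889% of transcripts did. These counts describe the choice of the members as much as the exposure, and nothing is read from them.

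The summed levels of some tissue markers in the same libraries lay apart from the controls at some of these doses, in part by a narrow margin. The skin, lens and retina, and nerve sums overlapped the controls at every MeNQ dose. The 9 globin rows summed to between 14650 and 17910 CPM at 4225 mg/L and to between 7072 and 14590 CPM in the MeNQ controls, with 0 of the 6 tested rows called and the alpha globin larval-1 row at 0 in both groups. The 2 gut rows summed to between 3229 and 4360 CPM at that dose and to between 4387 and 6172 CPM in the controls, and neither row was called or at 0. The 19 muscle rows summed to between 28590 and 32140 CPM at 170 mg/L and between 32040 and 36970 CPM at 851 mg/L, against 21480 to 27450 CPM in the controls. Of the 14 muscle rows tested, 0 rose at 170 mg/L and 2 rose at 851 mg/L, and the rows named myosin-10-like, tropomyosin alpha-1 chain and slow skeletal troponin I were at 0 in all 3 groups. The 5 liver rows, none at 0, summed to between 2293 and 2819 CPM at 851 mg/L against 1590 to 2234 CPM in the controls, with 1 row called higher. Their part in the members' values was not tested.

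NQ and MeNQ, which differ by a methyl group, were given at matched molar concentrations of 0.3, 1.4, 7.2 and 36 mmol/L, which allowed the response to each, against its own control, to be set against the other in 36 member comparisons. For v-fos the MeNQ minus NQ difference in log2 fold change was −1.40 at 0.3 mmol/L (95% interval −2.74 to −0.06), −4.36 at 1.4 mmol/L (−5.73 to −2.98), −1.90 at 7.2 mmol/L (−3.23 to −0.57) and −6.03 at 36 mmol/L (−7.45 to −4.61). For the kruppel-like factor it was −1.28, −2.58, −1.16 and −2.71, with an interval of −3.27 to −2.15 at 36 mmol/L. For nuclear receptor 4A2 it was −1.54, −2.50, −1.69 and −1.69, and for ATF-3-like it was −2.91 (−4.16 to −1.65) at 36 mmol/L. The differences stand on unequal controls: at 36 mmol/L the mean v-fos level was 41.1 ± 5.78 CPM in NQ and 30.6 ± 19.7 CPM in MeNQ, while the control means were 19.2 ± 3.46 and 920.8 ± 424.5 CPM.

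The other members differed less between the compounds or had wide intervals. At 36 mmol/L the difference was −2.43 for CYR61-like (−4.25 to −0.61) and −2.55 for egr2 (−4.51 to −0.58). For CTGF it was −1.59 (−2.73 to −0.45). For zfp36 the interval at 36 mmol/L ran from −2.89 to 0.81 and for SOCS3 from −5.79 to 0.56, so a difference of either sign was within reach. An adjusted p under 0.05 was reached by 1, 3, 1 and 4 members in order of concentration, where 0.0213%, 0.128%, 0.114% and 0.626% of 14068 transcripts reached it, and nothing is read from that.

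In NQ-exposed tadpoles v-fos rose with the dose step, and no member passed the test at any dose taken alone. v-fos was at 20.1, 19.0, 19.1 and 26.3 CPM at 30 mg/L and at 31.6, 33.8, 32.1 and 28.1 CPM at 150 mg/L. It was at 20.4, 22.7, 26.0 and 80.9 CPM at 750 mg/L and at 43.3, 47.5, 39.4 and 34.0 CPM at 3750 mg/L. The groups at 150 and 3750 mg/L lay above all 4 controls, and at 750 mg/L library D stood far above the others. All 4 libraries above all 4 controls was the case for 2.55% of transcripts at 150 mg/L and 4.90% at 3750 mg/L. The slope was 0.30 ± 0.07 log2 units per dose step (adjusted p = 0.0414, edgeR quasi-likelihood test), and 1.23% of the 12969 transcripts passed the same test. The call is a narrow one: over 10 alternative settings the adjusted p ran from 0.00178 to 0.0888, and it was lost with the sequencing lane as a term (0.0888), with the deepest run of each library alone (0.0665) and with the library letter as a replicate block (0.0607). Leaving out libraries in turn kept the slope between 0.25 and 0.32 and ended the call in 10 of 20 cases, namely without any of the 4 controls (adjusted p from 0.0617 to 0.0637), without any of the 4 libraries at 3750 mg/L (0.0629 to 0.0978) and without 30 mg/L B (0.0569) or D (0.0540). Without 750 mg/L D the slope was 0.25 ± 0.05 (adjusted p = 0.0144). At 3750 mg/L the 18 skin marker rows summed to 1800 to 2554 CPM, against 2812 to 3951 CPM in the controls. Of 14 tested, 3 were lower. The 22 nerve rows summed to 1158 to 1291 CPM, against 1401 to 1490 CPM, and 1 of 13 tested was lower. The other marker sums overlapped the controls there. At 30 mg/L the muscle and liver sums lay above the controls, and at 750 mg/L the globin sum lay below. The part of the markers in the v-fos values was not tested.

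At 3750 mg/L v-fos was 2.14-fold above the control, a log2 fold change of 1.10 ± 0.33 (adjusted p = 0.0740, edgeR), with alternatives between 0.0199 and 0.117. Nuclear receptor 4A2 at 150 mg/L was at 32.7, 33.1, 33.5 and 34.9 CPM against 14.4, 18.8, 28.2 and 12.7 CPM in the controls, without overlap, a log2 fold change of 0.86 ± 0.20 (adjusted p = 0.191, edgeR). Its adjusted p was 0.00457 with DESeq2, the lowest of the alternatives. The change at 150 mg/L was under 2-fold, and the requirement of a 2-fold change is a cut-off on the same fit that gives no p-value of its own. At 3750 mg/L the log2 fold change was 0.07 ± 0.20. zfp36 was at 60.0, 55.2, 91.1 and 112 CPM at 150 mg/L, below all controls of 114 to 275.5 CPM, as were 2.89% of transcripts, with a log2 fold change of −1.25 ± 0.53 (adjusted p = 0.595, edgeR). The kruppel-like factor stayed between 67.3 and 104 CPM in all 20 NQ libraries, with 95% intervals that lay within −0.28 to 0.51 on the log2 scale at all 4 doses.

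Over the 4 NQ doses 0 of 9 members passed edgeR's test, where 0%, 0.0154%, 0% and 4.48% of transcripts did. At an unadjusted p under 0.05 there were 0, 3, 2 and 1 members in order of dose, where 8.15%, 7.55%, 6.75% and 16.3% of transcripts stood. DESeq2 called 0, 1, 0 and 1 members, where it called 0.779%, 1.10%, 0.679% and 8.84% of transcripts. Intervals were wide for SOCS3, which ran from 0 to 22.0 CPM over the 20 libraries: at 3750 mg/L its log2 fold change was 1.64 with an interval of −1.09 to 4.37, and it ran from 1.24 without control B to 3.37 without control C.

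In TNT-exposed tadpoles 0 of 8 members tested passed the test, where up to 12.0% of transcripts did, and nothing is read from that. v-fos lay between 20.0 and 35.6 CPM in all 16 libraries, and its log2 fold change at 3.4 mg/L was 0.12 ± 0.17 (95% interval −0.25 to 0.49). The kruppel-like factor lay between 80.1 and 110 CPM, with 0.15 ± 0.10 at 3.4 mg/L (−0.06 to 0.36), and nuclear receptor 4A2 lay between 15.4 and 31.3 CPM, with 0.10 ± 0.17 (−0.27 to 0.47). CTGF had a log2 fold change of −0.39 ± 0.38, zfp36 of 0.59 ± 0.46 and SOCS3 of −0.23 ± 0.67 at that dose. ATF-3-like was listed at 0 in 13 of the 16 libraries and at no more than 0.862 CPM in the others, and was not tested. In order of dose, 0 of 8 members tested were called by edgeR or by DESeq2 and 0 had an unadjusted p under 0.05, where edgeR called 2.76%, 5.39% and 12.0% of 12648 transcripts. Of all transcripts, DESeq2 called 5.86%, 9.22% and 16.5%, and 13.1%, 16.5% and 22.6% had an unadjusted p under 0.05. Over the dose steps 0 of 8 were called by edgeR, where 11.5% of transcripts were.

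In IMX-101-exposed tadpoles ATF-3-like rose, and the other members did not pass the test. It was at 8.04, 3.15, 7.36 and 10.9 CPM in the controls, at 7.97, 10.6, 13.5 and 26.5 CPM at 10 mg/L, at 20.6, 27.4, 13.6 and 14.3 CPM at 20 mg/L and at 28.1, 26.3, 27.7 and 29.9 CPM at 40 mg/L. All libraries of 20 and 40 mg/L lay above all controls, where 5.80% and 6.22% of transcripts did so. At 40 mg/L it was 3.80-fold higher, a log2 fold change of 1.93 ± 0.40 (adjusted p = 0.00879, edgeR), and over the dose steps the slope was 0.61 ± 0.12 (adjusted p = 0.00573), where 7.73% of transcripts passed that test. The libraries of 20 and 40 mg/L came from another sequencing run set than those of the control and 10 mg/L. Dose and run set therefore cannot be told apart across that step. Control libraries had 2 runs each and totals of 13.73 to 18.01 M, and those of 40 mg/L had 1 run each and 5.758 to 7.698 M. Estimated ATF-3-like counts were 154.2, 50.6, 101.2 and 176.4 in the controls and 155.7, 159.9, 194.1 and 227.7 at 40 mg/L. Controls A and D were thus near the 40 mg/L libraries in counts and apart from them in CPM. The part of depth in the fold change was not tested. The slope was not fitted with the run set as a term. Within a run set, the log2 difference was 0.99 ± 0.39 for 10 mg/L against the control (adjusted p = 0.367) and 0.56 ± 0.39 for 40 against 20 mg/L (adjusted p = 0.739), in the same direction and not past the threshold.

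Beside it, the marker sums given here lay apart from the controls at 40 mg/L, except that of muscle, which overlapped them. The gut and skin sums overlapped the controls as well. The 19 muscle rows summed to between 31020 and 40400 CPM at 40 mg/L and between 22530 and 31070 CPM in the controls, with 3 of 14 tested rows higher and 2 lower and 5 rows at 0 in both groups. The 8 crystallin rows summed to between 2407 and 2613 CPM at 40 mg/L and between 1365 and 1711 CPM in the controls, with 5 of 6 tested rows higher. The 9 globin rows summed to between 2053 and 4438 CPM against 7608 to 11240 CPM, with 1 of 6 tested rows lower and the alpha globin larval-1 row at 0 in both groups. The 22 nerve rows summed to between 1471 and 1628 CPM against 1816 to 1887 CPM, with 1 of 13 tested rows higher and 1 lower. The 5 liver rows summed to between 2329 and 2721 CPM against 1671 to 2055 CPM, with 2 rows higher. Their part in the ATF-3-like value was not tested.

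v-fos varied widely within the IMX-101 groups of 10 and 20 mg/L. It was at 466.5, 388.2, 91.4 and 32.9 CPM at 10 mg/L, at 17.8, 794.9, 477.9 and 395.8 CPM at 20 mg/L and at 111.0, 60.5, 77.1 and 69.1 CPM at 40 mg/L. The 44.5-fold range at 20 mg/L was its widest within any of the 18 groups, and library A was the low one. In the same library A the kruppel-like factor was at 85.1 CPM against 183.9 to 257.3 CPM in B to D, CYR61-like was at 4.75 CPM against 13.7 to 22.7 CPM, and zfp36 was at 265.5 CPM against 16.4 to 25.8 CPM. The log2 fold change of v-fos at 40 mg/L was −1.09 ± 0.90 (adjusted p = 0.637, edgeR). zfp36 was at 66.7, 539.5, 122.2 and 334.6 CPM at 40 mg/L against 10.2, 72.4, 27.3 and 26.5 CPM in the controls, overlapping only in the lowest dosed and the highest control library. Its log2 fold change was 2.96 ± 1.00 (adjusted p = 0.101, edgeR), and the lowest adjusted p of the alternatives was 0.00824, with DESeq2. For 40 against 20 mg/L, within the same run set, the log2 difference of zfp36 was 1.71 ± 0.955 (adjusted p = 0.623, edgeR). Over 10, 20 and 40 mg/L, 0, 0 and 1 of 9 members passed edgeR's test, where 0.989%, 5.21% and 7.51% of 12542 transcripts did. At an unadjusted p under 0.05 there were 1, 1 and 2 members, where 9.97%, 18.9% and 18.5% of transcripts stood. DESeq2 called 0, 1 and 2 members and 4.08%, 10.6% and 11.7% of transcripts, and nothing is read from these counts.

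Other genes of the same systems were read from 5 lists of 138 transcript rows in all, covering AP-1 and ATF partners, early genes (zinc finger, nuclear receptor, IER and HES names), MAP kinase feedback and signalling, matricellular genes, and cytokine inhibitors with mRNA decay factors. In the MeNQ exposure 0 of the 111 list genes tested were called at 34 mg/L, 3 at 170 mg/L, 1 at 851 mg/L and 1 at 4225 mg/L. The 3 are 2.70% of the list genes, beside 0.156% of all transcripts, and the single genes are 0.901%, beside 0.437% and 0.393%. The lists were chosen with earlier results of these data known, and these values rest on the same MeNQ controls as those of the members. Nothing is therefore read from these shares, and the p-values below do not allow for the choice. At 170 mg/L, 1 of 17 early genes fell, the radiation-inducible immediate-early gene IEX-1 (log2 fold change −0.93 ± 0.18, adjusted p = 0.0455, edgeR). Of 49 MAP kinase feedback and signalling genes 2 fell, dual specificity phosphatase 1-A, which switches MAP kinases off (−1.48 ± 0.28, adjusted p = 0.0455), and tribbles homolog 1, a pseudokinase (−0.71 ± 0.13, adjusted p = 0.0342). At 851 mg/L the Krueppel-like factor 4 isoform X1 row fell from a mean of 14.7 to 3.62 CPM (−2.02 ± 0.40, adjusted p = 0.0347). The isoform X4 row of the same factor, with a MeNQ control mean of 13.95 CPM, was not called. At 4225 mg/L tribbles homolog 1 fell (−0.63 ± 0.13, adjusted p = 0.0418). None of the 12 AP-1 and ATF partners, 11 matricellular genes or 22 cytokine inhibitor and mRNA decay genes tested was called by edgeR at any MeNQ dose. At 4225 mg/L 3, 1 and 3 of them had an unadjusted p under 0.05, where 10.0% of all transcripts did. At 4225 mg/L the list medians were 0.15, −0.36, −0.04, −0.04 and 0.39 on the log2 scale in the order of the lists, beside −0.01 for all transcripts.

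Set against NQ at matched concentrations, IEX-1 differed by −1.26 ± 0.23 at 1.4 mmol/L (adjusted p = 0.00626, edgeR) and by −0.99 ± 0.23 at 36 mmol/L (adjusted p = 0.0293). Tribbles homolog 1 differed by −0.99 ± 0.18 (adjusted p = 0.00500) and by −0.73 ± 0.18 (adjusted p = 0.0399) at those concentrations. These were the 2 of 111 list genes called at each of those concentrations, where 0.128% and 0.626% of transcripts were called, and nothing is read from that. Both were lower in MeNQ relative to its control than in NQ relative to its own.

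In the controls, 20 of 95 list genes tested in all exposures had their highest mean in MeNQ, 21.1% against 16.7% of transcripts. In 5 of the 95, or 5.26% beside 0.437% of transcripts, all MeNQ control libraries lay above all other control libraries. Nothing is read from this share, because the lists were chosen with earlier results known. The TNT controls stood apart in the same way for 6 of the 95, 6.32% beside 6.20% of transcripts. The 5 of the MeNQ controls were dual specificity phosphatase 1-A with a mean of 108.5 CPM, where the other controls averaged 43.6 to 48.8 CPM, IEX-1 with 102.9 CPM against 50.0 to 68.3 CPM, dual specificity phosphatase 5 with 51.2 CPM against 2.86 to 24.0 CPM, GADD45 alpha, a stress-induced growth arrest protein, with 61.0 CPM against 40.8 to 45.1 CPM, and a second Ctgf row with 12.0 CPM against 4.61 to 6.86 CPM. With library totals alone the MeNQ controls stood apart for 4 of the 95, beside 0.532% of transcripts.

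In the TNT exposure 14 of 100 list genes tested were called at 3.4 mg/L, near the 12.0% of all transcripts called. IEX-1 rose at all 3 doses, from 50.0 CPM in the controls to 124.1 CPM at 3.4 mg/L (log2 fold change 1.32 ± 0.13, adjusted p = 8.5e-06, edgeR). MafG, a small Maf protein that pairs with bZIP factors, also rose at all 3 doses (2.16 ± 0.26 at 3.4 mg/L, adjusted p = 7.1e-05), from 2.16 to 9.80 CPM. Of 13 AP-1 and ATF partners 2 rose and 1 fell at 3.4 mg/L, with C/EBP alpha at 0.73 ± 0.16 (adjusted p = 0.00839) and ATF4, the factor of the integrated stress response, at −0.23 ± 0.04 (adjusted p = 0.00248). Of 48 MAP kinase feedback and signalling genes 6 rose and 1 fell. Those of the 6 with the smallest adjusted p by edgeR were MAP kinase-interacting kinase 2 (0.67 ± 0.13, adjusted p = 0.00293), dusp16 (0.63 ± 0.14, adjusted p = 0.00784) and tribbles homolog 1 (0.47 ± 0.11, adjusted p = 0.0144). The largest log2 fold change among the 6 was that of sprouty homolog 3-like, of a family of receptor tyrosine kinase antagonists, at 1.13 ± 0.31 (adjusted p = 0.0265). Dual specificity phosphatase 22 fell (−0.33 ± 0.08, adjusted p = 0.0132). A cytokine-inducible SH2-containing protein-like row (1.02 ± 0.30, adjusted p = 0.0423) and CCR4-NOT subunit 10-B, of the deadenylase complex (0.80 ± 0.23, adjusted p = 0.0338), rose among 16 cytokine inhibitor and decay genes, and thrombospondin 4 fell among 9 matricellular genes (−0.43 ± 0.11, adjusted p = 0.0216). The list medians were between −0.15 and 0.35, beside 0.06 for all transcripts. At 3.4 mg/L the globin marker rows summed to 6437 to 12090 CPM, against 1732 to 4383 CPM in the controls. The gut sum was 1811 to 3318 CPM against 5107 to 7224 CPM, and the skin sum 2378 to 2874 CPM against 3570 to 4657 CPM. The lens and retina sum was 1479 to 1913 CPM against 2253 to 2787 CPM. The muscle, liver and nerve sums overlapped the controls. The part of the markers in the TNT values was not tested.

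In the IMX-101 exposure at 40 mg/L, 7 of 102 list genes tested were called, 6.86% beside 7.51% of all transcripts. Atf5 rose among 11 AP-1 and ATF partners (0.75 ± 0.11, adjusted p = 0.000572, edgeR), as it did at 10 and 20 mg/L. Krueppel-like factor 3 rose (0.64 ± 0.11, adjusted p = 0.00225) and an immediate early response 5-like row fell (−0.71 ± 0.14, adjusted p = 0.00754) among 16 genes of the zinc finger, nuclear receptor and other early gene list. Tribbles homolog 1 (0.52 ± 0.13, adjusted p = 0.0238) and dual specificity phosphatase 6, which acts on ERK (0.49 ± 0.13, adjusted p = 0.0308), rose among 47 MAP kinase feedback and signalling genes. WISP1-like, a relative of CYR61 and CTGF, fell (−1.22 ± 0.14, adjusted p = 8.9e-05) among 9 matricellular genes. Tristetraprolin-like, a second row of the zfp36 family, fell (−0.95 ± 0.26, adjusted p = 0.0421) among 19 cytokine inhibitor and decay genes, while zfp36 itself had a log2 fold change of 2.96 ± 1.00 that missed the threshold. Dose and run set cannot be told apart for the values of 20 and 40 mg/L. At 10 mg/L, in the run set of the control, Atf5 had a log2 fold change of 0.62 ± 0.11 (adjusted p = 0.0135, edgeR).

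In the NQ exposure at 3750 mg/L, 2 of 102 list genes tested were called, 1.96% beside 4.48% of all transcripts. In the AP-1 and ATF partner list, with 12 genes tested, the row named CCAAT/enhancer-binding protein zeta fell (−0.57 ± 0.15, adjusted p = 0.0416, edgeR). The list took this row in by its protein name alone, so its fall is not read as that of an AP-1 or ATF partner. Of 48 MAP kinase feedback and signalling genes 1 rose, the MAP kinase-interacting kinase 2 (0.58, adjusted p = 0.0344, edgeR). None of the other 3 lists had a member called there by edgeR, with 1, 2 and 2 genes at an unadjusted p under 0.05. In the AP-1 and ATF partner list 7 of 12 genes stood there, where 5 of the 12 fold changes were below 0. In the MAP kinase feedback and signalling list it was 8 of 48. Over all 5 lists 19.6% of genes stood there beside 16.3% of transcripts. The lists were chosen with earlier results known, so nothing is read from these counts. No gene of the 5 lists was called by edgeR at the lower NQ doses, where 0% to 0.0154% of transcripts were. At an unadjusted p under 0.05 there were 9.80%, 6.86% and 5.88% of list genes at 30, 150 and 750 mg/L, near the 8.15%, 7.55% and 6.75% of transcripts.

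Within groups, v-fos and the kruppel-like factor were high or low in the same libraries in the MeNQ and IMX-101 exposures. After the group mean was taken from each log2 level, Pearson's r between them was 0.83 (Spearman's rho 0.68) over 72 libraries, and by exposure r was 0.41 in NQ, 0.11 in TNT, 0.75 in MeNQ and 0.98 in IMX-101. Without the 2 libraries farthest from the median of v-fos, r was 0.78 over all libraries, 0.97 in IMX-101 and −0.29 in TNT. The points share the library and its depth. CTGF followed v-fos with r = 0.45 over all libraries, from −0.53 in TNT to 0.82 in IMX-101, and CYR61-like with 0.38. zfp36 ran against v-fos with r = −0.49, from −0.72 in IMX-101 to 0.12 in NQ, and the pooled and IMX-101 values became −0.35 and −0.48 without the 2 farthest libraries. ATF-3-like (−0.04) and SOCS3 (−0.17) had weak correlations with v-fos.

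**Figure D3:**
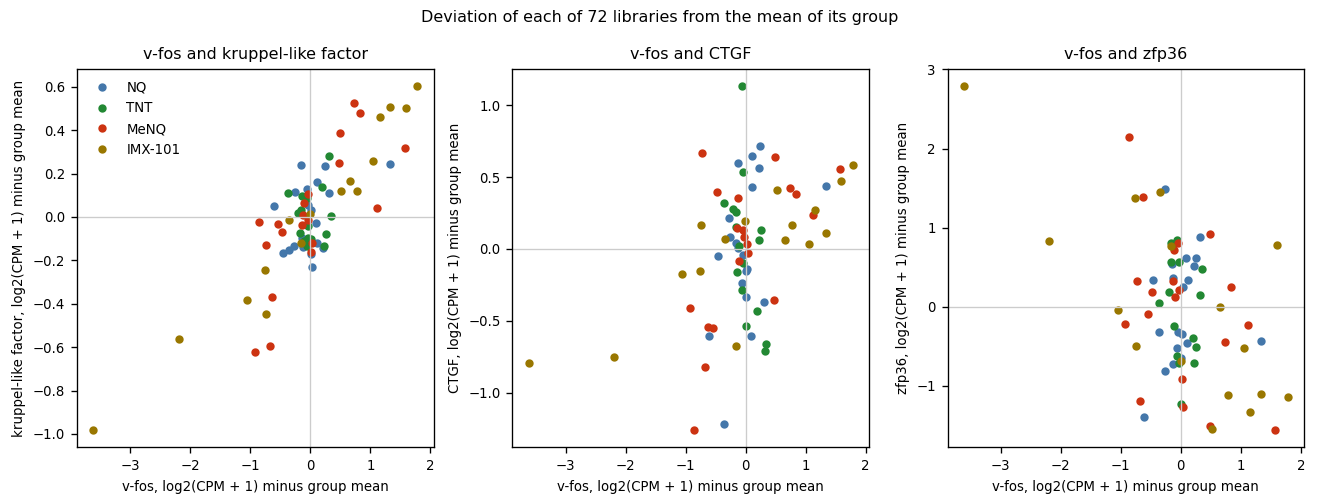
Deviation of each library from its group mean, in log2(CPM + 1), for v-fos on the horizontal axis and the kruppel-like factor, CTGF or zfp36 on the vertical axis; each point is 1 of 72 libraries, coloured by exposure. On log2 CPM with 0.5 added to each count, r was 0.83 for the kruppel-like factor and −0.49 for zfp36, and the points farthest out on the v-fos axis are IMX-101 libraries.

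Among 6688 transcripts compared in the same way, the nearest to v-fos outside the set were a row named MGC86303 (r = 0.62), the zinc transporter Slc30a4 (0.60) and monocarboxylate transporter 2-like (0.58). MGC86303 (0.68), Slc30a4 (0.54) and alveolar macrophage chemotactic factor-like, a chemokine name (0.54), were nearest to the kruppel-like factor. Nearest to the mean of the members were alveolar macrophage chemotactic factor-like (0.54), MGC86303 (0.52), IEX-1 (0.51), coiled-coil domain-containing protein 88B (0.48) and AMP deaminase 3-like (0.48). For egr2 the nearest was cation-transporting ATPase 13A3 (0.71) and for nuclear receptor 4A2 Rasl10b (0.52). For ATF-3-like it was the protein phosphatase 1 subunit 16A (0.54), for CYR61-like brca1 (0.68), for CTGF a protein phosphatase 2 A-alpha subunit (0.50), for zfp36 VAV3 (0.48) and for SOCS3 zinc finger CCHC protein 7 (0.50). Spearman's rho was lower than r for each transcript named except IEX-1. It was 0.27 for monocarboxylate transporter 2-like, 0.29 for the protein phosphatase 1 subunit, 0.38 for brca1 and 0.44 for ATPase 13A3. Each r is among the largest of 6688, so its size is not read as a link.

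How well a library's value repeats differed between members. In 62 libraries sequenced in 2 runs, the median absolute log2 ratio of the runs was 0.07 for v-fos and 0.12 for the kruppel-like factor. It was 0.26 for nuclear receptor 4A2, 0.36 for egr2, 0.45 for CTGF and 0.61 for both CYR61-like and ATF-3-like. For zfp36 it was 1.22 and for SOCS3 2.64. Libraries at 0 in both runs are included, such as all 4 of TNT 1.5 mg/L for ATF-3-like, and their ratios rest on no reads. The SD between libraries of a group, on the same scale, was 0.92 for v-fos and 0.32 for the kruppel-like factor, above the difference between runs. It was 1.03 for zfp36 and 2.33 for SOCS3, below the median difference between repeat runs of a library.

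**Figure D4:**
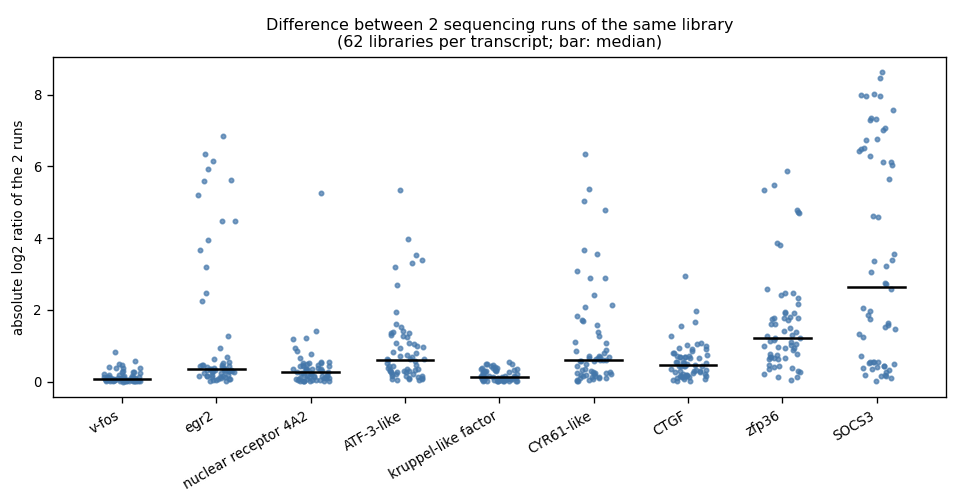
Absolute log2 ratio of the 2 sequencing runs of a library on the vertical axis for each member on the horizontal axis; each point is 1 of 62 libraries and the bar is the median. Medians run from 0.07 for v-fos to 2.64 for SOCS3. Libraries at 0 in both runs are included.

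The members also differed in spread beside other transcripts. The kruppel-like factor had a biological coefficient of variation of 0.142 in NQ and 0.112 in TNT, at percentiles 7.99 and 9.49 of the transcripts tested, and of 0.234 in MeNQ and 0.314 in IMX-101. For v-fos it was 0.336 in NQ, 0.192 in TNT, 0.515 in MeNQ and 0.815 in IMX-101, where the median transcript had 0.431, 0.383, 0.400 and 0.373. v-fos was thus less variable than the median transcript in NQ and TNT and more variable in MeNQ and IMX-101. SOCS3 was above the median in all 4 exposures, from 0.651 in TNT to 1.71 in IMX-101.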

How the data were processed

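Whole-tadpole RNA was sequenced in 134 runs of 72 libraries, 62 of them in 2 runs. The authors deposited estimated counts per assembled transcript made with Salmon, per the submitters' processing notes, with the closest protein name. No genome build is given in the sources used here. For the runs, 1 of 3 header lines of a column of NQ control A names another library, and at 3750 mg/L of NQ the second-run names of libraries A and C carry each other's sample number; with runs assigned by the other header lines, run means equalled the per-library values the authors deposited within 5.50e-05 counts. Runs were summed per library, rounded to whole numbers and tested in R 4.3.3 with edgeR 4.0.16 (filterByExpr, TMM scaling, glmQLFit and glmQLFTest), all libraries of an exposure in 1 model and Benjamini-Hochberg adjustment over all transcripts, with a threshold of 0.05. MeNQ and NQ responses were contrasted in 1 model of their 40 libraries. SE is the absolute log2 fold change over the root of F. Slopes take dose steps as equal. DESeq2 1.42.0, other scalings, filters, run choices, a lane term, a replicate block and left-out libraries were alternatives. Scripts were tested on simulated data. p-values measure spread between beakers. Doses are those of the sample labels, from which the design text differs for a few groups.

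The members and the gene lists were chosen with earlier results of these data known. Named besides the 9 members are, per list and exposure, up to 4 genes with the smallest adjusted p at the highest dose, others where a count was 5 or fewer, and the 3 transcripts nearest to each member by correlation, of which the text gives at least the nearest. Sprouty homolog 3-like was named for the size of its fold change in the TNT exposure. Rows with near-identical copies may share reads in Salmon's estimates.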

Additional observations from a re-analysis of the deposited data

Results flagged for a closer look

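In 15 of 162 member and group pairs (9.26%), the highest or lowest library stood apart from the other 3 by Dixon's ratio. Its threshold gives about 1 in 20 for independent values with a normal distribution. CPM values of members that share libraries need not be of that kind, so the 2 shares are not compared. For v-fos these were NQ 30 mg/L D at 26.3 CPM, NQ 750 mg/L D at 80.9 CPM and MeNQ 4225 mg/L A at 59.9 CPM. For egr2 they were NQ 150 mg/L A at 0.0 CPM and MeNQ control D at 12.0 CPM. For nuclear receptor 4A2 it was IMX-101 20 mg/L B at 35.5 CPM, and for the kruppel-like factor TNT 1.5 mg/L B at 110.4 CPM. For ATF-3-like they were NQ control A at 5.08 CPM and TNT control D at 0.673 CPM, where the other 3 controls were at 0. For CYR61-like they were NQ control C at 5.46 CPM, NQ 150 mg/L A at 1.90 CPM and TNT 1.5 mg/L D at 3.63 CPM. For CTGF it was TNT 2.3 mg/L B at 36.1 CPM, for zfp36 IMX-101 20 mg/L A at 265.5 CPM and for SOCS3 IMX-101 20 mg/L C at 1.91 CPM.

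In 9 of 36 member comparisons of MeNQ with NQ the fitted difference had an adjusted p under 0.05, where 0.0213% to 0.626% of transcripts did at each concentration. These comparisons may have guided the choice of the members, so the values are a description and no difference is claimed from them. The log2 differences were −1.54, −2.50, −1.69 and −1.69 for nuclear receptor 4A2 at 0.3, 1.4, 7.2 and 36 mmol/L, −4.36 and −6.03 for v-fos at 1.4 and 36 mmol/L, −2.58 and −2.71 for the kruppel-like factor at the same concentrations, and −2.91 for ATF-3-like at 36 mmol/L.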

How the results depend on the processing

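Over 22 comparisons and the alternatives run, no fold change that had passed the threshold changed direction. DESeq2 in place of edgeR called 1 member at NQ 150 mg/L and 1 at 3750 mg/L where edgeR called 0, beside 143 and 1147 of all transcripts. At MeNQ 34 mg/L it called 4 members where edgeR called 0, beside 71 of all transcripts. It called 3 members where edgeR called 1 over the MeNQ dose steps, beside 233 of all transcripts. For IMX-101 it called 1 at 20 mg/L, 2 at 40 mg/L and 2 over the dose steps, beside 1335, 1470 and 1428 of all transcripts. For MeNQ minus NQ it called 3 at 0.3 mmol/L and 2 at 7.2 mmol/L, beside 124 and 187 of all transcripts. With only the libraries compared in the fit, 1 member was called at NQ 3750 mg/L, beside 98 of all transcripts. At MeNQ 170, 851 and 4225 mg/L 2, 0 and 3 members were called, against 5, 2 and 6, beside 4, 0 and 8 of all transcripts. This fit has fewer samples. With the deepest run of each library alone, 0 were called over the NQ dose steps, 3 at MeNQ 170 mg/L, 1 at 851 mg/L, and 0 in MeNQ minus NQ at 0.3 and at 7.2 mmol/L. Without a filter on low counts 1 was called at MeNQ 851 mg/L and 2 over its dose steps. With the sequencing lane as a term 0 were called over the NQ dose steps and 1 at MeNQ 851 mg/L. Against 20 mg/L in place of the control, 0 were called at IMX-101 40 mg/L, and with ATF-3-like counts divided by the value of 1 read the ATF-3-like call at MeNQ 170 mg/L was lost, so that 4 members in place of 5 were called, while its calls at MeNQ 4225 mg/L, at IMX-101 40 mg/L and over the IMX-101 dose steps were kept; both were chosen after seeing the data. The cause was not tested for any of the other settings. The MeNQ and MeNQ minus NQ counts describe the choice of the members as well, and nothing is read from them.

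Same-letter libraries of 2 groups correlated between −0.04 and 0.08, and in 0 comparisons was every pair over 0.1, so the letters do not pair the libraries. With the letter as a replicate block 0 members were called over the NQ dose steps (v-fos adjusted p = 0.0607) and 0 over the MeNQ dose steps, and the other counts of members called were those of the fit without it.

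Leaving out each library in turn gave 0 to 1 members called at NQ 150 mg/L (1 without control C) and 0 to 1 over the NQ dose steps, beside 0 to 11 and 30 to 202 of all transcripts. It gave 0 to 2 at MeNQ 34 mg/L, 2 to 5 at 170 mg/L, 1 to 2 at 851 mg/L, 3 to 6 at 4225 mg/L and 0 to 2 over the MeNQ dose steps (0 without control A or B, 2 without 851 mg/L A or B). Of all transcripts, 0 to 4, 4 to 16, 18 to 48, 17 to 83 and 2 to 29 were called in the same order. The left-out fits gave 1 member at IMX-101 40 mg/L and 1 to 2 over its dose steps (2 without 20 mg/L D), beside 611 to 821 and 645 to 990 of all transcripts. For MeNQ minus NQ they gave 0 to 2 at 0.3 mmol/L, 3 at 1.4 mmol/L, 1 to 2 at 7.2 mmol/L (2 without MeNQ control D or 851 mg/L B) and 4 at 36 mmol/L. Of all transcripts, 0 to 9, 10 to 37, 1 to 20 and 39 to 245 were called in the same order. The MeNQ 170 mg/L count stayed at 5 without control D, and the 4225 mg/L count stayed at 6 without control D or 4225 mg/L A. Nothing is read from the MeNQ and MeNQ minus NQ counts.

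With left-out libraries aside, counts over all transcripts moved by over 1.5 times in 65 pairs of a comparison and a setting, and did not in 161. DESeq2 was the highest in each comparison, for example 195 against 21 at MeNQ 170 mg/L and 1147 against 581 at NQ 3750 mg/L, where only the libraries compared gave 98. A lane term could not be fitted beside the group terms for IMX-101 or for MeNQ minus NQ, and it was not tried for the IMX-101 slope. The fit of only the libraries compared gives no slope. Low counts limit SOCS3, CYR61-like, egr2 and ATF-3-like, each at 0 in some libraries.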
